A study of Dipsacus asperoides with 9 samples.

Results

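The beta-amyrin 28-oxidase family of *Dipsacus asperoides* roots was taken as every unigene whose best protein match in the NR database carried the name beta-amyrin 28-oxidase or beta-amyrin 28-monooxygenase. Of the 65535 unigenes in the table, 12 had such a name, and the 10 that reached 1 FPKM in 3 or more of the 9 libraries are the members described here. FPKM is a fragment count scaled by transcript length and by the mapped reads of the library, so levels of different unigenes can be set side by side. The names come from the matched protein in another species and do not show what the *D. asperoides* protein does. Within this rule, expression values were used only for that filter. Unigene identifiers are those of the Trinity assembly, with the TRINITY_ prefix left out.

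RNA-Seq was done on roots of plants labelled wild type at 3 stages, with 3 libraries labelled as biological replicates per stage. L1 stands for seedlings with 1 leaf, L2 for seedlings with 2 leaves, and M7 for plants grown for 7 months. The labels name no treatment, and they do not say how many plants went into a library or which part of the root was taken. The study asked which genes go along with the formation of asperosaponin VI, an oleanane-type triterpenoid saponin stored in the roots of this medicinal herb.

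Triterpenoid saponins start from squalene, which the mevalonate pathway and squalene synthase supply. Squalene epoxidase oxidises it, and beta-amyrin synthase folds the product into beta-amyrin. In other plants, cytochrome P450 enzymes of the CYP716A subfamily, the beta-amyrin 28-oxidases, then oxidise one methyl carbon of beta-amyrin by successive steps to a carboxyl group and so form oleanolic acid. Further P450 enzymes add hydroxyl groups, which gives sapogenins such as hederagenin, and glycosyltransferases attach the sugars. All these P450 enzymes sit in the endoplasmic reticulum membrane and take their electrons from NADPH-cytochrome P450 reductase.

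The libraries differed in how many unigenes they held. Between 26048 and 28468 unigenes reached 1 FPKM in the L1 libraries and between 32849 and 34173 in the L2 libraries, against 13430, 18794 and 17517 in M7 replicates 1, 2 and 3. The 100 highest unigenes took between 20.6% and 34.2% of the summed FPKM in the seedling libraries, and 48.1% in M7 replicate 1. The number of reads behind a value is unknown, and a unigene listed at 0 may have been below detection. Of the 34925 unigenes tested, 12216 (35.0%) were listed at 0 in all 3 M7 libraries. Of the same 34925, 26.3% reached 1 FPKM in the libraries of a single stage only, 6185 of them in L2. Such unigenes were tested because of the stage in which they were high, so a difference from that stage is fixed by the filter. Unigenes that reached 1 FPKM at both seedling stages but in no M7 library were likewise tested through the seedlings. Their lower level at M7 is a description, and they are not among the calls counted below as fixed by the filter. Defining root markers were low in seedlings, and each was under 1 FPKM in every M7 library. They too were tested through the seedlings, so their lower level at M7 is a description. The 6 tested unigenes named casparian strip membrane protein, an endodermis scaffold, summed to between 20.2 and 38.7 FPKM in seedling libraries and to between 0.68 and 1.19 FPKM at M7, where 3 of the 6 were listed at 0 in every library. The 3 named SHORT-ROOT or SCARECROW, regulators of the root ground tissue, summed to between 8.66 and 20.9 FPKM in seedlings and to between 0.11 and 1.09 FPKM at M7. The whole root list of 28 tested unigenes, mostly scarecrow-like factors that are not specific to roots, summed to between 506 and 1362 FPKM in seedlings and to between 82.1 and 177 FPKM at M7, with 9 listed at 0 there. The leaf list of 22 tested unigenes summed to between 63.6 and 225 FPKM in seedlings and to between 1360 and 3260 FPKM at M7, 5 of them being at 0 in every M7 library. That M7 sum was carried by 1 chlorophyll a-b binding unigene (DN22710_c0_g1), without which the other 21 summed to 346, 161 and 178 FPKM at M7, between 162 and 197 FPKM in L1 and between 42.0 and 48.6 FPKM in L2. Of the 22, 3 were higher and 12 lower in M7 than in L1, against 9.37% and 35.1% of all unigenes tested. Between M7 and L2, 8 were higher and 6 lower at M7, against 7.71% and 52.6% of all tested. The xylem list of 16 tested unigenes summed to between 108 and 174 FPKM in seedlings and to between 57.6 and 88.1 FPKM at M7, where 3 were at 0. The part of these marker levels in the results on the family was not tested.

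The 10 members fell into a few patterns. The abundant members DN3713_c0_g1 and DN23767_c0_g1 were present in every library. DN10108_c0_g1 was low in seedlings and up-regulated at M7. DN27026_c0_g1, DN28910_c0_g1, DN18710_c1_g1 and DN26012_c0_g1 were found in seedling roots and were listed at 0 in all M7 libraries, and DN23766_c1_g1 fell to below 1 FPKM there. DN15240_c0_g2 and DN15240_c0_g3 did not pass the test in any comparison.

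**Figure D1:**
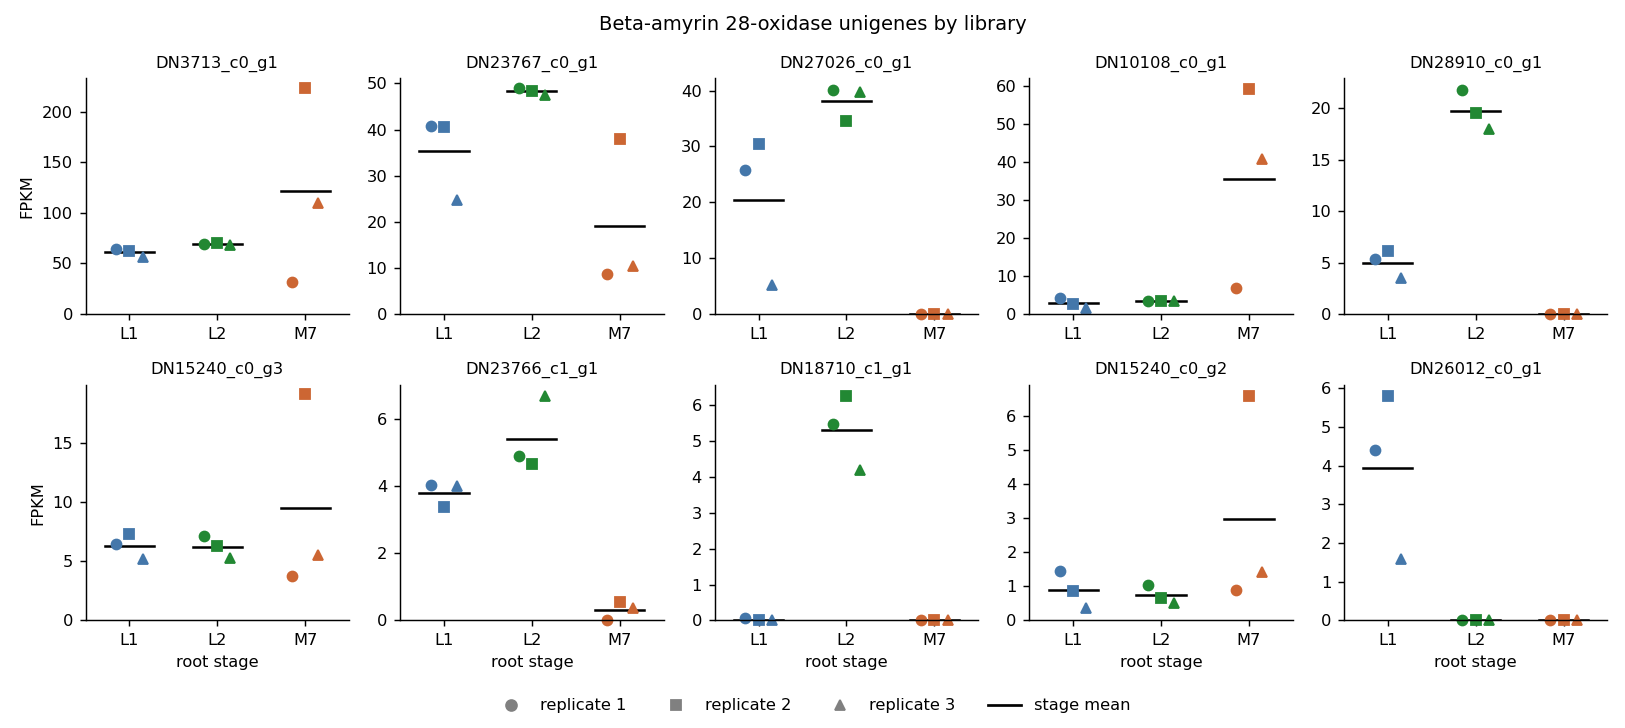
FPKM of the 10 members in each of the 9 libraries, 1 panel per unigene with its own linear axis from 0, in order of the mean over all libraries. Each symbol is 1 library (circle, square and triangle for replicates 1, 2 and 3) and the line is the mean of the 3 libraries of a stage; 4 members lie at 0 in all M7 libraries, and replicate 2 is the highest M7 library for the other 6.

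DN3713_c0_g1, matched to a beta-amyrin 28-oxidase-like protein of *Rosa chinensis*, was the most abundant member at every stage. Its mean over the 9 libraries was 83.9 FPKM, which ranked 1141 among all unigenes tested. In L1 it stood at 64.4, 62.2 and 56.2 FPKM (60.9 ± 4.26, SD, n = 3). In L2 it stood at 69.7, 70.5 and 68.1 FPKM (69.4 ± 1.19, SD, n = 3). All L2 libraries were above all L1 libraries, but by a small margin. At M7 the libraries read 31.4, 223 and 110 FPKM (121 ± 96.6, SD, n = 3), so that 1 lay below and 2 lay above every seedling library. No comparison of this unigene passed the test, which was limma on log2(FPKM + 1) with Benjamini-Hochberg adjustment over all unigenes tested. L2 minus L1 was 0.19 on that log2 scale (SE 0.59, adjusted p = 0.833). The fit has 1 estimate of spread per unigene over all 3 stages, so the scatter at M7 enters this SE too. The same holds for the L2 minus L1 results of the other members. M7 minus L1 was 0.59 (SE 0.59, adjusted p = 0.498) and M7 minus L2 was 0.40 (SE 0.59, adjusted p = 0.592). The M7 comparisons rested on single libraries. Without M7 replicate 1, limma gave 1.35 against L1 (adjusted p = 0.00570) and 1.16 against L2 (adjusted p = 0.00877). Without M7 replicate 2, the values were -0.048 and -0.23. Rescaling the libraries by median ratios also brought both differences past the threshold in limma, at 1.24 (adjusted p = 0.0196) and 1.28 (adjusted p = 0.0138).

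DN23767_c0_g1, matched to a beta-amyrin 28-oxidase-like protein of *Sesamum indicum*, ranked second among the members in seedlings. It stood at 40.8, 40.5 and 24.6 FPKM in L1 (35.3 ± 9.24, SD, n = 3). The L2 libraries read 49.1, 48.4 and 47.6 FPKM (48.3 ± 0.751, SD, n = 3). The M7 libraries read 8.71, 37.9 and 10.3 FPKM (19.0 ± 16.4, SD, n = 3). Every L2 library was above every L1 and M7 library, whereas the L1 and M7 ranges overlapped through M7 replicate 2. In limma the level fell by 1.60 on the log2 scale from L2 to M7 (SE 0.50, adjusted p = 0.0227). This call held under 11 of 20 alternative settings, with adjusted p between 0.000330 and 0.117 over all of them, and was lost under both rescalings of the libraries, in the fit of only the L2 and M7 libraries, and without M7 replicate 1 (alone or with L1 replicate 3), M7 replicate 3 or any 1 of the L2 libraries. L2 minus L1 was 0.48 (SE 0.50, adjusted p = 0.492) and M7 minus L1 was -1.13 (SE 0.50, adjusted p = 0.106) in limma. The latter passed without M7 replicate 2, at -1.76 (adjusted p = 0.00152).

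DN23766_c1_g1, matched to a beta-amyrin 28-oxidase of *Vitis vinifera*, was a low-level member that fell at M7. It stood at 4.02, 3.36 and 3.99 FPKM in L1 and at 4.89, 4.66 and 6.67 FPKM in L2. At M7 it read 0, 0.56 and 0.36 FPKM, below every seedling library. It passed the filter only through its seedling libraries, so its lower level at M7 is given as a description. Stage means were 3.79 ± 0.373, 5.41 ± 1.10 and 0.307 ± 0.284 FPKM (SD, n = 3 each). In limma the level fell by 1.90 from L1 to M7 (SE 0.23, adjusted p = 0.000262) and fell by 2.30 from L2 to M7 (SE 0.23, adjusted p = 5.38e-05). L2 minus L1 was 0.41 (SE 0.23, adjusted p = 0.208). The pseudocount of 1 makes such differences of low unigenes smaller than the ratio of their FPKM.

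Of the 4 members listed at 0 in every M7 library, the most abundant was DN27026_c0_g1, matched to a beta-amyrin 28-monooxygenase-like protein of *Coffea arabica*. It was the third member in seedlings, at 25.7, 30.5 and 5.22 FPKM in L1 (20.5 ± 13.4, SD, n = 3). The L2 libraries read 40.2, 34.6 and 39.8 FPKM (38.2 ± 3.13, SD, n = 3). L1 replicate 3 stood far below the other seedling libraries, and all L2 libraries were above all L1 libraries. L2 minus L1 was 1.17 (SE 0.55, adjusted p = 0.129 in limma) and passed in 1 of 20 alternatives. The unigene was called lower at M7 than in L1 (limma, adjusted p = 0.000397) and than in L2 (limma, adjusted p = 6.04e-05). This member passed the filter only through its seedling libraries. Its lower level at M7 is thus a description, to which these p-values add no support. No fold is given where a stage is listed at 0, since depth is unknown.

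DN28910_c0_g1, matched to a beta-amyrin 28-oxidase-like protein of *Rosa chinensis*, had the clearest rise between the seedling stages. It stood at 5.35, 6.09 and 3.48 FPKM in L1 (4.97 ± 1.35, SD, n = 3). It reached 21.8, 19.5 and 17.9 FPKM in L2 (19.8 ± 1.94, SD, n = 3). The L1 and L2 ranges were far apart, and all M7 libraries were at 0. It passed the filter only through its seedling libraries, so its lower level at M7 is a description. In limma the rise from L1 to L2 was 1.82 on the log2 scale (SE 0.22, adjusted p = 0.000195), and it passed under all 20 alternatives, between 1.32 and 2.00. M7 was lower than L1 (limma, adjusted p = 4.21e-05) and lower than L2 (limma, adjusted p = 1.16e-06).

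DN18710_c1_g1, matched to a beta-amyrin 28-oxidase of *Capsicum baccatum*, was in practice an L2 unigene. It read 0.06, 0 and 0 FPKM in L1, 5.46, 6.25 and 4.18 FPKM in L2 (5.30 ± 1.04, SD, n = 3), and 0 in the M7 libraries. It passed the filter only through its L2 libraries, so its differences from L2 are given as a description. L2 minus L1 was 2.61 on the log2 scale, a size that depends on the pseudocount and ran from 1.03 to 5.51 over the alternatives. DN26012_c0_g1, matched to a beta-amyrin 28-oxidase-like protein of *Daucus carota*, had the opposite seedling pattern. It read 4.41, 5.80 and 1.59 FPKM in L1 (3.93 ± 2.15, SD, n = 3) and was listed at 0 in all L2 and M7 libraries. It passed the filter only through its L1 libraries, so that its lower level at the other stages is likewise a description.

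A zero at M7 was not particular to these unigenes. It was found for 4 of the 10 members (40%), against 35.0% of all unigenes tested. Among the 475 tested unigenes named ribosomal protein, a class that every cell uses, 285 (60%) were listed at 0 in all M7 libraries. The share also moved with the species of the matched protein. It was 36.2% of the 58 unigenes matched to *Capsicum baccatum* and 26.8% of the 127 matched to *Rosa chinensis*, but 10.6% for *Daucus carota*, 9.35% for *Coffea arabica* and 5.40% for *Actinidia chinensis*. In bulk roots, fewer cells of a type and less RNA per cell cannot be told apart. A stage at 0 adds no spread to the fit, so that the standard errors and p-values given for DN27026_c0_g1 and DN28910_c0_g1 may be too small.

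DN10108_c0_g1, matched to a beta-amyrin 28-oxidase of *Actinidia chinensis*, was the only member up-regulated at M7 in the test. It stood at 4.29, 2.73 and 1.63 FPKM in L1 (2.88 ± 1.34, SD, n = 3). The L2 libraries read 3.53, 3.36 and 3.40 FPKM (3.43 ± 0.0889, SD, n = 3). The M7 libraries read 6.77, 59.2 and 40.7 FPKM (35.6 ± 26.6, SD, n = 3). All M7 libraries were above all seedling libraries, with replicate 1 closest to them. In limma the rise was 2.85 from L1 (SE 0.69, adjusted p = 0.00959) and 2.60 from L2 (SE 0.69, adjusted p = 0.0110). The rise from L1 passed under 19 of 20 alternatives, between 2.06 and 3.75, and missed the threshold in the fit of only the L1 and M7 libraries (adjusted p = 0.0565). The rise from L2 passed under all 20, between 1.95 and 3.71. L2 minus L1 was 0.25 (SE 0.69, adjusted p = 0.809 in limma). Without M7 replicate 2 the rises were 2.27 and 2.02 and still passed, but the M7 mean no longer exceeded 30 FPKM, the level that the study set for differentially expressed genes (DEGs).

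DN15240_c0_g3 and DN15240_c0_g2 share a Trinity cluster and a match in *Daucus carota*, so reads may have been split between them and their separate levels are uncertain. DN15240_c0_g3 read 6.46, 7.32 and 5.14 FPKM in L1, 7.09, 6.30 and 5.30 FPKM in L2, and 3.74, 19.1 and 5.55 FPKM at M7. DN15240_c0_g2 read 1.46, 0.86 and 0.36 FPKM in L1, 1.04, 0.66 and 0.51 FPKM in L2, and 0.90, 6.59 and 1.42 FPKM at M7. In both, M7 replicate 2 stood above all other libraries, which otherwise overlapped. The differences lay between -0.09 and 0.92 on the log2 scale, and the adjusted p from limma lay between 0.138 and 0.988. The cluster also held DN15240_c0_g1, which was named only as a P450 and had a like profile, at 13.7 FPKM on average at M7 with 35.0 FPKM in replicate 2. The 2 unigenes under the filter, DN3094_c0_g1 and DN3094_c0_g2, also shared a cluster. Their values lay between 0 and 1.30 FPKM in seedling libraries, and their highest values, 3.11 and 4.53 FPKM, were again those of M7 replicate 2.

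The 6 members with values above 0 at M7 shared 1 high library. Replicate 2 was the highest M7 library for 6 of the 6 members above 0 there, against 51.9% of the 22709 tested unigenes above 0 at M7. Replicate 2 exceeded replicate 1 by 4.36 to 8.75 times in the 5 members with a value in every M7 library, a median of 2.83 on the log2 scale. Over the 16020 tested unigenes with a value in every M7 library, that median was 1.05. The members share these libraries, so they are not independent of each other. The most abundant unigene named NADPH-cytochrome P450 reductase, DN208_c0_g2, the electron donor of such enzymes, was likewise lowest in M7 replicate 1 and in L1 replicate 3, at 46.1, 209 and 167 FPKM in M7, and at 260, 260 and 90.7 FPKM in L1.

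Counted over the family, L2 against L1 gave 2 members higher and 1 lower among 10, with 26.1% of all unigenes tested higher and 14.8% lower. No member met the DEG thresholds of the study in this comparison (an adjusted p under 0.05, a log2 fold change past 2 in either direction, and more than 30 FPKM as the highest stage mean), against 1.24% of all tested. Without the FPKM threshold 2 members met them, DN18710_c1_g1 and DN26012_c0_g1, whose calls were fixed by the filter. The share of all unigenes without that threshold was not counted. The libraries of L1 and L2 did not overlap for 7 of the 10 members, against 60.9% of all unigenes tested. The members' median difference was 0.33, beside 0.32 over all unigenes tested, and that overall median was 0.15 with median ratio rescaling and -0.04 with quantile normalization. DN28910_c0_g1 and DN18710_c1_g1 were the members called higher in L2, and DN26012_c0_g1 was the one called lower. The calls of DN18710_c1_g1 and DN26012_c0_g1 were fixed by the filter, which leaves DN28910_c0_g1 as the only member whose call was not.

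M7 against L1 gave 1 member higher and 4 lower, with 9.37% of all unigenes tested higher and 35.1% lower. The median over the members was -0.58, beside -0.48 over all. The DEGs were DN10108_c0_g1 (higher) and DN27026_c0_g1 (lower), against 5.14% of all tested. Rescaling moved the split: with median ratio rescaling and with quantile normalization alike, 3 members were higher and 4 lower, and the overall median was -0.23 and 0.17. M7 against L2 gave 1 member higher and 5 lower, with 7.71% of all unigenes tested higher and 52.6% lower. The median over the members was -0.80, beside -1.07 over all. The same 2 unigenes were DEGs, against 5.15% of all tested. Here median ratio rescaling gave 4 members higher and 4 lower, and quantile normalization gave 3 higher and 4 lower, with overall medians of -0.70 and 0.05. Through a single stage, the filter fixed 1 of the 4 lower calls against L1 (DN26012_c0_g1) and 1 of the 5 against L2 (DN18710_c1_g1). DN27026_c0_g1, DN28910_c0_g1 and DN23766_c1_g1 reached 1 FPKM in 6 libraries each, all of seedlings. Their lower calls at M7 thus also followed from how they passed the filter. The remaining lower call against L2 was that of DN23767_c0_g1. Libraries did not overlap for 5 of the 10 members between M7 and L1, against 49% of all unigenes tested, and for 6 of the 10 between M7 and L2, against 68.1% of all tested. Both comparisons used the same M7 libraries, so they are not independent.

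**Figure D2:**
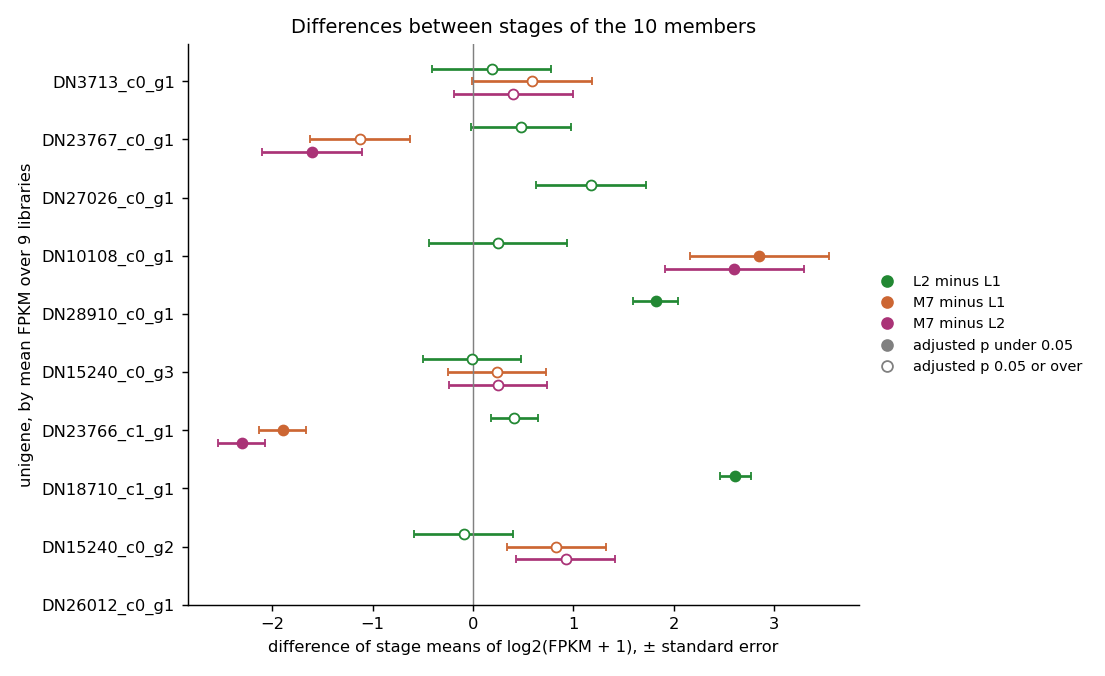
Difference between stage means of log2(FPKM + 1) for each member, with its standard error from limma (n = 3 libraries per stage); colours are the 3 comparisons and filled points have an adjusted p under 0.05. Comparisons with a stage listed at 0 in all its libraries are not drawn, which leaves DN26012_c0_g1 without a point. The filled point of DN18710_c1_g1 is fixed by the filter, and DN23766_c1_g1 passed the filter only through its seedling libraries. DN10108_c0_g1 stands to the right at M7, at 2.85 and 2.60.

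The summed level of the family was steady in L2 and scattered at M7. The 10 members together gave 157, 159 and 102 FPKM in L1 (139.5 ± 32.3, SD, n = 3) and 203, 194 and 193 FPKM in L2 (197 ± 5.15, SD, n = 3). At M7 the sum was 51.5, 347 and 168 FPKM (189 ± 149, SD, n = 3), a range that enclosed every seedling library. The shares in the sum did not overlap between seedlings and M7 for the 2 unigenes that led at M7. These 2 were picked by their level at M7, and the shares of a library add up to the whole. Members not detected at M7 thus raise the shares of the others, so the higher shares are only a description. DN3713_c0_g1 made up 41.0%, 39.0% and 55.0% of the sum in L1 and between 34.4% and 36.3% in L2. At M7 it made up 60.9%, 64.4% and 65.3%. In FPKM, however, this member passed the test in no comparison, and its M7 range enclosed every seedling library. DN10108_c0_g1 made up between 1.59% and 2.73% in seedlings and 13.2%, 17.1% and 24.2% at M7. At least 1 FPKM was reached by 8 or 9 members in each seedling library and by 4 or 5 in each M7 library.

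**Figure D3:**
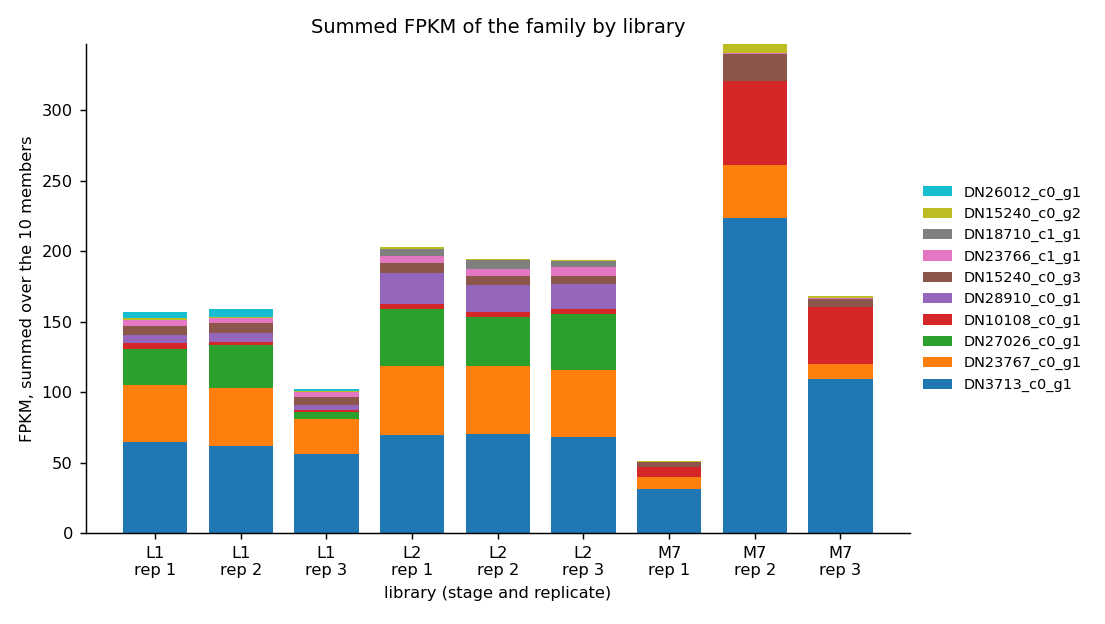
Summed FPKM of the 10 members in each library, as stacked bars from 0 with 1 colour per unigene. The L2 bars lie close together between 193 and 203 FPKM, whereas the M7 bars run from 51.5 to 347 FPKM and consist mostly of DN3713_c0_g1 and DN10108_c0_g1.

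The order of the members changed between the seedling stages and M7. In L1 DN3713_c0_g1 led, and its range was apart from that of DN23767_c0_g1. Below it the ranges of neighbours overlapped down to DN10108_c0_g1 in place 8, and the 2 lowest, DN15240_c0_g2 and DN18710_c1_g1, stood apart. In L2 the first 4 places were held by DN3713_c0_g1, DN23767_c0_g1, DN27026_c0_g1 and DN28910_c0_g1, each with a range apart from the next. DN15240_c0_g3, DN23766_c1_g1 and DN18710_c1_g1 followed with overlapping ranges, and DN10108_c0_g1 was again in place 8. At M7 DN10108_c0_g1 took place 2 behind DN3713_c0_g1, and the ranges of the first 5 members overlapped from each place to the next. Within each M7 library, however, DN3713_c0_g1 was first, DN15240_c0_g3 was in place 4 and DN15240_c0_g2 in place 5. Only DN10108_c0_g1 and DN23767_c0_g1 traded places, DN23767_c0_g1 being in place 2 in replicate 1 and in place 3 in the other libraries.

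The other steps of the pathway were followed through name lists. Of all unigenes tested, 26.1% were higher and 14.8% lower in L2 than in L1. In M7, 9.37% were higher and 35.1% lower than in L1, and 7.71% were higher and 52.6% lower than in L2. The 25 tested mevalonate pathway unigenes, which make the isoprenoid precursors, had 10 higher and 2 lower in L2 than in L1, 5 higher and 6 lower in M7 than in L1, and 5 higher and 12 lower in M7 than in L2. The filter fixed 7 of the 10 calls higher in L2 and 7 of the 12 lower in M7 than in L2. The 7 unigenes behind them reached 1 FPKM only in L2. All 7 were matched to *Quercus suber*, and the reason was not tested. Through unigenes that reached 1 FPKM only in L1, the filter fixed 2 of the 2 lower in L2 and 2 of the 6 lower in M7 than in L1. The most abundant, an acetoacetyl-CoA thiolase (DN1177_c0_g1), averaged 176, 378 and 1058 FPKM in L1, L2 and M7, with rises of 1.12, 2.59 and 1.47 in limma (adjusted p = 0.00180 from L1 to L2, 2.30e-05 from L1 to M7 and 0.000277 from L2 to M7). The most abundant of the 4 farnesyl diphosphate and squalene synthases, DN2830_c0_g1, passed in no comparison (adjusted p in limma between 0.287 and 0.705). Its M7 libraries read 67.0, 386 and 304 FPKM, with replicate 1 low as in the family. Of those 4 synthases, 2 were higher and none lower in L2 than in L1, and none was higher and 1 lower at M7 against either seedling stage. A single unigene that reached 1 FPKM only in L2 gave 1 of the calls higher in L2 and the lower call against L2. It too was matched to *Quercus suber*. Of 5 squalene epoxidases, 2 were higher at M7 against each seedling stage, and 1 was lower than in L1 and 2 lower than in L2. In L2 against L1, 1 of the 5 was higher and 1 lower. The highest by the mean over all libraries, DN13177_c0_g1, averaged 86.1, 109 and 519 FPKM and rose by 2.64 from L1 to M7 (limma, SE 0.28, adjusted p = 0.000114). In seedlings DN3327_c0_g1, a squalene monooxygenase noted after its values were seen, was higher, at 255 and 133 FPKM in L1 and L2. It fell by 0.94 from L1 to L2 (limma, SE 0.27, adjusted p = 0.0228) and averaged 163 FPKM at M7, which did not pass against either seedling stage (adjusted p = 0.0616 and 0.512 in limma).

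Beta-amyrin synthase makes the substrate of a beta-amyrin 28-oxidase. At M7 this synthase was not called higher, as DN10108_c0_g1 was, and DN3713_c0_g1 passed the test in no comparison. Whether their profiles differ was not tested. From L2 to M7 the synthase fell, in a comparison where 52.6% of all unigenes tested were lower. Of the 5 members called lower there, all but DN23767_c0_g1 passed the filter only through seedling libraries. Their lower level is thus a description. DN2802_c1_g1, the most abundant beta-amyrin synthase unigene, stood at 79.2, 87.6 and 94.8 FPKM in L1 and at 242, 239 and 205 FPKM in L2. At M7 it read 83.4, 39.7 and 36.7 FPKM, so that replicate 1, the lowest M7 library for DN3713_c0_g1, was the highest for this unigene. In limma it rose by 1.38 from L1 to L2 (SE 0.31, adjusted p = 0.00656) and fell by 2.18 from L2 to M7 (SE 0.31, adjusted p = 0.000382), and M7 minus L1 was -0.80 (SE 0.31, adjusted p = 0.0673). The ratio of DN3713_c0_g1 to this synthase lay between 0.593 and 0.814 in L1 and between 0.288 and 0.333 in L2, without overlap. At M7 the ratio was 0.376, 5.63 and 2.99. Over the 10 tested oxidosqualene cyclases, the class that includes beta-amyrin synthase, 3 were higher and 1 lower in L2 than in L1. None was higher at M7, with 3 lower than in L1 and 6 lower than in L2. The filter fixed 2 of the 3 calls higher in L2 and 2 of the 6 lower in M7 than in L2. The 3 lower in M7 than in L1, also among those 6, reached 1 FPKM only in seedling libraries. Their lower level at M7 is thus a description.

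**Figure D4:**
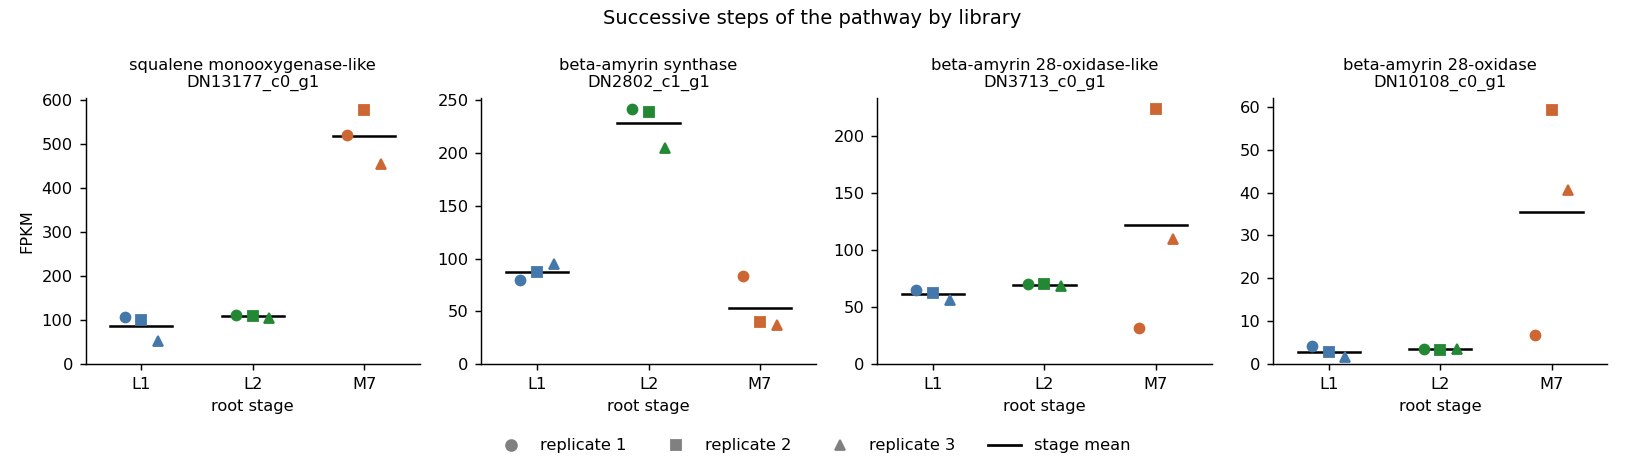
FPKM by library for a squalene monooxygenase-like unigene, the most abundant beta-amyrin synthase, and the members DN3713_c0_g1 and DN10108_c0_g1, each on its own linear axis from 0. Symbols are replicates 1, 2 and 3 and the line is the stage mean; beta-amyrin synthase peaks in L2 at 205 to 242 FPKM, whereas the squalene monooxygenase-like unigene is highest at M7, at 519 FPKM on average.

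Other triterpene P450 names were lower at M7 than in L2 where they passed. Of 6 unigenes with names of the CYP716 type other than the family, 2 were higher in L2 than in L1, 1 was higher and 2 lower in M7 than in L1, and 4 were lower in M7 than in L2. The most abundant, DN20888_c0_g2, named dammarenediol 12-hydroxylase after a ginseng enzyme of another triterpene skeleton, averaged 15.8, 61.5 and 19.1 FPKM. It rose by 1.90 from L1 to L2 (limma, SE 0.36, adjusted p = 0.00277) and fell by 1.76 from L2 to M7 (limma, SE 0.36, adjusted p = 0.00305). Both unigenes higher in L2, and most of those lower in M7 than in L2, were of its Trinity cluster. Reads may have been split between these cluster mates, so their separate levels are uncertain. Of 4 CYP72A names, a subfamily that in other plants hydroxylates oleanane triterpenes, 2 were higher in L2 than in L1, 2 were lower in M7 than in L1 and 4 were lower in M7 than in L2. Both calls higher in L2, and 2 of the 4 lower against L2, came from unigenes that reached 1 FPKM only in L2 and were fixed by the filter. Another of the 4 stayed at 0.25 FPKM or less at M7 and was tested through the seedlings, so its lower level there is a description. The most abundant of the 4, DN13400_c0_g1, averaged 6.62, 8.75 and 0.743 FPKM. Of 7 UGT73 and UGT74 names, families that hold saponin glycosyltransferases, 5 were lower in M7 than in L1, 6 were lower in M7 than in L2 and none was higher. In L2 against L1, 1 was higher and 1 lower, and the most abundant, DN1253_c0_g2, passed in no comparison (adjusted p in limma between 0.165 and 0.683). Some UGT unigenes called lower at M7 read 0.16 FPKM or less in every M7 library. They were tested through the seedlings, so their lower level there is a description.

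The sterol branch, which competes for oxidosqualene, had 3 of 11 tested unigenes higher and 3 lower in L2 than in L1, 1 higher and 6 lower in M7 than in L1, and 1 higher and 8 lower in M7 than in L2. The filter fixed 2 of the 3 calls higher and 3 of the 3 lower in L2, 3 of the 6 lower in M7 than in L1 and 2 of the 8 lower in M7 than in L2. The one higher, 24-methylenesterol C-methyltransferase 2 (DN14361_c0_g3), averaged 89.1, 137 and 483 FPKM and rose by 2.47 from L1 to M7 (limma, SE 0.28, adjusted p = 0.000178). The P450 redox partner list, whose name pattern also takes in cytochrome b561 and cytochrome b5 reductase, had 8 of 35 higher and 2 lower in L2 than in L1, 3 higher and 9 lower in M7 than in L1, and 4 higher and 17 lower in M7 than in L2, of which the filter fixed 5 of the 8 and 5 of the 17. Its most abundant unigene, a cytochrome b5 (DN12500_c0_g1), averaged 216, 173 and 491 FPKM and rose by 1.19 from L1 to M7 (limma, SE 0.24, adjusted p = 0.00390). Of the 8 tested NADPH-cytochrome P450 reductase unigenes, none passed between M7 and L1. The 2 that reached 1 FPKM only in L2, both matched to *Quercus suber*, were called higher than in L1 and than in M7. The 8 summed to between 127 and 486 FPKM in L1, between 391 and 441 FPKM in L2 and between 87.4 and 342 FPKM at M7. All the pathway lists stand beside background shares of 26.1% higher and 14.8% lower in L2 than in L1. For M7 the shares were 9.37% higher and 35.1% lower than in L1, and 7.71% higher and 52.6% lower than in L2. Some lists also held unigenes that reached 1 FPKM at both seedling stages but not at M7, whose lower calls there are a description.

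The unigenes most like the 2 leading members were found by the root mean square difference of log2(FPKM + 1), each centred on its own mean over the 9 libraries. This is a description over libraries that all unigenes share. The nearest to DN3713_c0_g1 was DN11589_c0_g3, named cinnamoyl-CoA reductase 1-like, at 0.169. It averaged 78.4, 71.9 and 121 FPKM in L1, L2 and M7. A HAIKU2-type receptor-like kinase (DN12015_c0_g1, 0.228), a phosphatidylinositol 4-kinase gamma 5-like unigene (DN14719_c0_g1, 0.231) and 2 uncharacterized ones (DN16114_c0_g2, 0.201, and DN21785_c0_g1, 0.237) followed. The nearest to DN23767_c0_g1 were a UPF0503 protein (DN1669_c0_g1, 0.193), an NRT1/PTR family 5.2-like unigene (DN23802_c0_g3, 0.211), an acyl-CoA-binding protein (DN14088_c0_g1, 0.229), a receptor-like kinase (DN24296_c0_g1, 0.245) and a hypothetical protein (DN12785_c0_g1, 0.248). Within the family the closest pair was the cluster mates DN15240_c0_g3 and DN15240_c0_g2, at 0.341. DN3713_c0_g1 was next to DN15240_c0_g3, at 0.356, and DN23767_c0_g1 was nearest to DN23766_c1_g1, at 0.590. DN27026_c0_g1 and DN28910_c0_g1 stood at 0.786 from each other, and DN27026_c0_g1 and DN10108_c0_g1 were the farthest pair, at 3.63.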

How the data were processed

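The 9 root libraries were checked by the authors with FastQC, trimmed with fastx_toolkit, assembled together with Trinity without a reference genome, and quantified with RSEM. The methods name TPM for the RSEM step and FPKM for expression levels, so the deposited values are called FPKM. They are not counts, and the depth per library is unknown. Unigene names are the authors' Blastx matches in NR. The table held 65535 unigenes of the assembly, fewer than the study reports as expressed in the roots. Further unigenes of this name were not analysed here, so the family, its sums and its shares may be incomplete. No sequence was used.

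The 34925 unigenes that reached 1 FPKM in 3 or more libraries were tested on log2(FPKM + 1) with limma 3.58.1 in R 4.3.3 (1 mean per stage, all 9 libraries, eBayes with a trend), with Benjamini-Hochberg adjustment over all of them. The test was checked on simulated data. The thresholds of the DEGs are those of the methods, the last read as the highest stage mean. The members, the pathway and marker lists, and the alternatives were chosen with earlier results of these data known. Named unigenes are all members, the most abundant of each list, the 5 nearest to each of the 2 leading members, and, outside that rule and after their values were seen, DN208_c0_g2, DN15240_c0_g1 and DN3327_c0_g1. P-values measure the spread between libraries labelled as biological replicates, pooled over the 3 stages. The spread of the stage left out of a comparison therefore enters its SE and p-value.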

Additional observations from a re-analysis of the deposited data

How the results depend on the processing

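Over 20 alternative settings, the 10 members and 3 comparisons, 561 of 600 log2 fold changes kept their direction and their side of the threshold, 15 gained the call, 10 lost it and 14 changed sign, all 14 for differences that had not passed. The counts of members passing stayed within 1.5 times. The number of DEGs moved to 1 for M7 minus L2 with a pseudocount of 5, to 1 for M7 minus L1 and 1 for M7 minus L2 with median ratio rescaling, to 1 for M7 minus L1 in the fit of only 2 stages, and, without the FPKM threshold, to 2 in L2 minus L1, 4 in M7 minus L1 and 5 in M7 minus L2. The 2 in L2 minus L1 were DN18710_c1_g1 and DN26012_c0_g1, whose calls were fixed by the filter. Leaving out 1 library at a time gave 1 to 2 DEGs for M7 minus L1. The lower value came without M7 replicate 2, when the M7 mean of DN10108_c0_g1 dropped below 30 FPKM. It was then no DEG against L2 either, where the 2 DEGs were DN27026_c0_g1 and DN23767_c0_g1, both lower. Signs changed for DN3713_c0_g1 in L2 minus L1 with median ratio rescaling (-0.041), for DN10108_c0_g1 in L2 minus L1 with quantile normalization (-0.19) and without L1 replicate 3 and M7 replicate 1 (-0.0041), and for DN18710_c1_g1 in M7 minus L1 with quantile normalization (0.24). With 1 library left out, L2 minus L1 ran from -0.31 to 0.12 for DN15240_c0_g2, from -0.13 to 0.088 for DN15240_c0_g3 and from -0.0041 to 0.50 for DN10108_c0_g1. M7 minus L1 ran from -0.38 to 0.66 for DN15240_c0_g3 and from -0.048 to 1.35 for DN3713_c0_g1, and M7 minus L2 from -0.37 to 0.67 and from -0.23 to 1.16. The cause was not tested. With the replicate block, 3 members passed in L2 minus L1, 5 in M7 minus L1 and 6 in M7 minus L2, as without it, and the DEGs numbered 0, 2 and 2. Deviations of same-numbered libraries correlated between -0.0533 and 0.0529, so the numbers share no more than a name. The unknown depth limits what can be said of values near 0.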

Other observations

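Some Trinity clusters that hold a member also held unigenes with another name or none. How their sequences relate was not tested, and these unigenes were chosen after their values were seen. DN18710_c0_g1 has no name and had values only in L2, at 7.27, 4.30 and 3.97 FPKM, beside 5.46, 6.25 and 4.18 FPKM for its cluster mate DN18710_c1_g1. DN26012_c0_g2, matched to a hypothetical cotton protein, read 1.19, 1.25 and 1.12 FPKM in L2 and 0 elsewhere, whereas its cluster mate DN26012_c0_g1 was found in L1 alone. DN23766_c0_g1, named as a P450 of a broad class, averaged 4.31, 8.23 and 2.23 FPKM in L1, L2 and M7, while DN23766_c1_g1 averaged 3.79, 5.41 and 0.307 FPKM. In the cluster of the unigenes under the filter, DN3094_c1_g1 averaged 2.95, 4.91 and 11.7 FPKM and DN3094_c1_g2 averaged 3.83, 11.7 and 0.197 FPKM.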
